A study of Mus with 9 samples.

Results

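Collagen genes are described here in the kidneys of ageing mice, by type of collagen. The members were all protein-coding genes of the table whose symbol is Col, a number, the letter a and a number, which gave 44 of the 54532 genes. Of these, 11 encode fibrillar collagens (types I, II, III, V, XI, XXIV and XXVII), 6 encode the chains of type IV, the collagen of basement membranes, and 27 encode other types. Kidney RNA of 9 male C57BL/6 mice was sequenced in 3 groups of 3, named 18 mo, 21 mo and 21 mo/O304. All of them underwent unilateral nephrectomy at 18 months of age. The 18 mo mice were killed 1 week after surgery, the 21 mo mice were injected with saline, and the 21 mo/O304 mice received O304, an activator of the energy-sensing kinase AMPK, by intraperitoneal injection over 12 weeks (10 mg/kg/day). Between 18 mo and the other groups the age of the mice, the interval since nephrectomy and the injections all changed at once, and they cannot be told apart.

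Collagens are secreted proteins in which 3 chains wind into a triple helix. Fibrillar collagens assemble into the cross-banded fibrils of the interstitium and, in fibrosis, of the scar, and they are made mainly by fibroblasts and related stromal cells. Type IV collagen forms the sheet-like network of basement membranes, where the chains encoded by Col4a1 and Col4a2 are found around most cells, while those encoded by Col4a3, Col4a4 and Col4a5 build the network of the mature glomerular basement membrane. The other collagens include beaded filaments (type VI), network formers (type VIII), anchoring fibrils (type VII), multiplexins, which end in endostatin-like domains (types XV and XVIII), transmembrane collagens and the FACIT collagens, which bind to the surface of fibrils. In bulk RNA, fewer cells of a type and less RNA per cell cannot be told apart.

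Levels are given as CPM, counts scaled to the library's size by the trimmed mean of M values, when a gene is followed across libraries, and as the deposited FPKM, which also takes the gene's length into account, when genes are compared with each other. The counts on genes summed to between 15636378 and 18396725 per library, so that 1 count was worth 0.0458 to 0.0669 CPM and this depth limits the genes with few counts. The 3 mice of the 21 mo group did not resemble each other. The summed CPM of the proximal tubule markers was between 8403 and 11384 in 18 mo and between 8751 and 10498 in 21 mo/O304, but 8758, 4179 and 1127 in replicates 1 to 3 of 21 mo. The immune markers summed to 406, 775 and 2336 in the same 3 libraries, against at most 218 in 18 mo and at most 315 in 21 mo/O304. The urothelial markers summed to 3.14, 31.5 and 199, against at most 2.60. Of the 6 proximal tubule markers, 3 were lower in 21 mo than in 18 mo without overlap, beside 15.3% of all genes. Lrp2 (3219 CPM) and Cubn (697) were above every 18 mo library in replicate 1, and Slc5a12 stayed within the 18 mo range. Most of the immune sum was Lyz2, at 317, 691 and 2197 CPM. Of the 6 immune markers, 4 were higher than in 18 mo without overlap, beside 13.5%, and Cd3e and Cd79a overlapped. Of the 12 fibroblast and mural markers, 3 were higher in 21 mo than in 18 mo without overlap, beside 13.5% of all genes. The 12, which include Dcn, Lum and Postn of the pathway list below, summed to 159, 220 and 560, against 136 to 188 in 18 mo and 99.3 to 273 in 21 mo/O304. The 7 podocyte markers, none of which was free of overlap, summed to 245, 235 and 691, against 227 to 326 and 260 to 421. The 7 endothelial markers, none of which was free of overlap either, summed to 475, 320 and 245 in 21 mo, against 360 to 573 in 18 mo and 425 to 730 in 21 mo/O304. The adipocyte markers summed to between 6.14 and 60.0 in 21 mo/O304 and to at most 4.53 elsewhere. The part of these cells in the collagen values below was not tested, and for many fold changes the value without replicate 3 of 21 mo is given too.

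Type IV collagen accounted for the largest part of collagen RNA in each of the 9 kidneys. Col4a1 had the highest mean level of the 44 genes over all libraries, 31.3 FPKM. It was followed by Col18a1 at 27.8, Col4a2 at 23.6, Col4a4 at 18.6 and Col4a3 at 14.6 FPKM, and Col3a1, the first fibrillar gene in the order, came next at 12.1 FPKM. In 18 mo, Col4a1 stood at 27.8 ± 3.55 FPKM (SD, n = 3) and Col18a1 at 26.8 ± 0.538, a gap smaller than the SD of Col4a1, and Col4a2 at 22.8 ± 3.15 was level with Col4a4 at 22.8 ± 0.233. Summed over all collagen genes, the FPKM was 150.5, 164 and 185 in replicates 1 to 3 of 18 mo, 122, 221 and 383 in 21 mo, and 123, 127 and 127 in 21 mo/O304. Replicate 1 of 21 mo lay below every 18 mo mouse, while replicates 2 and 3 lay above them.

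Within 21 mo, the fibrillar genes spread the most of the 3 classes. Their summed FPKM was 16.6, 19.8 and 24.5 in 18 mo, 10.5, 50.0 and 119 in 21 mo, and 10.5, 16.9 and 15.4 in 21 mo/O304. As a share of all collagen FPKM this was 11.1, 12.04 and 13.3% in 18 mo, 8.63, 22.7 and 31.2% in 21 mo, and 8.52, 13.3 and 12.1% in 21 mo/O304. Type IV gave 58.0, 59.1 and 54.7% in 18 mo and 65.9, 58.9 and 58.9% in 21 mo/O304, but 65.3, 44.4 and 38.5% in 21 mo. The share of the other collagens stayed between 25.5 and 33.0% in the 9 libraries. The highest 21 mo library exceeded the lowest by a median of 5.97-fold over the 8 fibrillar genes tested, of 2.39-fold over the 6 type IV genes and of 3.46-fold over 18 other collagens, against 1.65-fold over the 15766 genes with counts in all 3 libraries. In 18 mo the same medians were 1.56, 1.27 and 2.04-fold, against 1.27-fold for all genes.

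**Figure D1:**
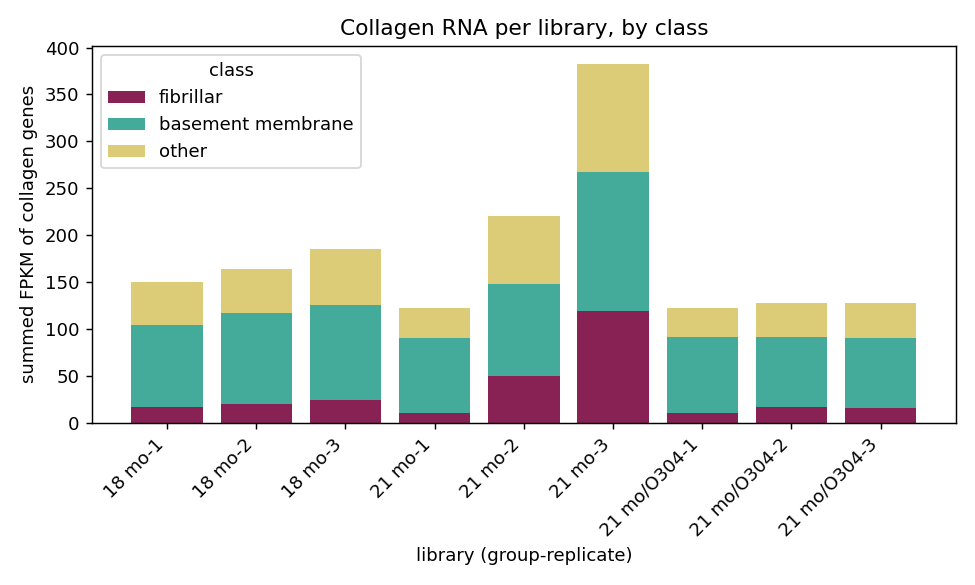
Summed FPKM of collagen genes in each library (y axis, from 0), stacked by class, with 1 bar per mouse. The total reaches 383 in replicate 3 of 21 mo and 221 in replicate 2, while replicate 1 of 21 mo, at 122, is level with the 3 libraries of 21 mo/O304 at 123 to 127.

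The comparison of 21 mo with 18 mo asks how collagen RNA differed in the older kidneys. Of the 44 genes, 33 had enough counts to be tested among 15902 genes (8 fibrillar, 6 type IV and 19 other), and each of the 33 reached the minimum count in libraries of more than 1 group. Col6a4, Col7a1 and Col24a1 reached it in only 4 libraries, and Col7a1 did not enter the test when the 21 mo libraries were left out. Fold changes are log2 values from edgeR's quasi-likelihood fit to all 9 libraries, each with its standard error (SE), and a gene was called at a Benjamini-Hochberg adjusted p under 0.05. No collagen gene was called by edgeR, where 0.0189% of all genes were, and 11 of 33 (33.3%) had an unadjusted p under 0.05, beside 26.1% of all genes. In direction, 21 of 33 had a higher fitted mean in 21 mo and 12 a lower one, with a median log2 fold change of 0.42 against 0.03 over all genes. The median was 0.76 for fibrillar, 0.39 for type IV and 0.39 for the other collagens, and each class held genes on both sides of 0.

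The mice of the 21 mo group lay on different sides of 18 mo. In replicate 1, 24 of 33 collagens (72.7%) were below all 3 mice of 18 mo, against 33.4% of all genes. Only 2 (6.06%) were above, against 31.1% of all genes. In replicate 2, 15 of 33 (45.5%) were above the 18 mo range, against 37.3% of all genes, and 8 (24.2%) were below, against 36.1%. In replicate 3, 21 of 33 (63.6%) were above, against 41.3% of all genes, and 7 (21.2%) were below, against 40.5%. Without replicate 3, the median log2 fold change was -0.25 for fibrillar, 0.00087 for type IV and -0.16 for the other collagens, and no collagen was called. Without replicate 1, the medians were 1.16, 0.65 and 0.81, and 17 of 35 collagens were called by edgeR (48.6%, of which 12 were higher and 5 lower), while 25.4% of all genes were called. DESeq2 called 6 of 34 with an adjusted p (17.6%), with 11.7% of all genes, namely Col3a1 and Col4a6 as higher and Col4a4, Col6a6, Col19a1 and Col27a1 as lower. limma voom with sample quality weights called 17 of 33 (51.5%), 9 higher and 8 lower, beside 52.9% of all genes, in a fit that gave replicate 2 of 21 mo a weight of 9.11 and replicates 1 and 3 weights of 0.223 and 0.132. With every gene of at least 1 count in the test, edgeR called 2 of 43 (4.65%), Col19a1 and Col27a1, both lower, beside 2.04% of all genes.

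**Figure D2:**
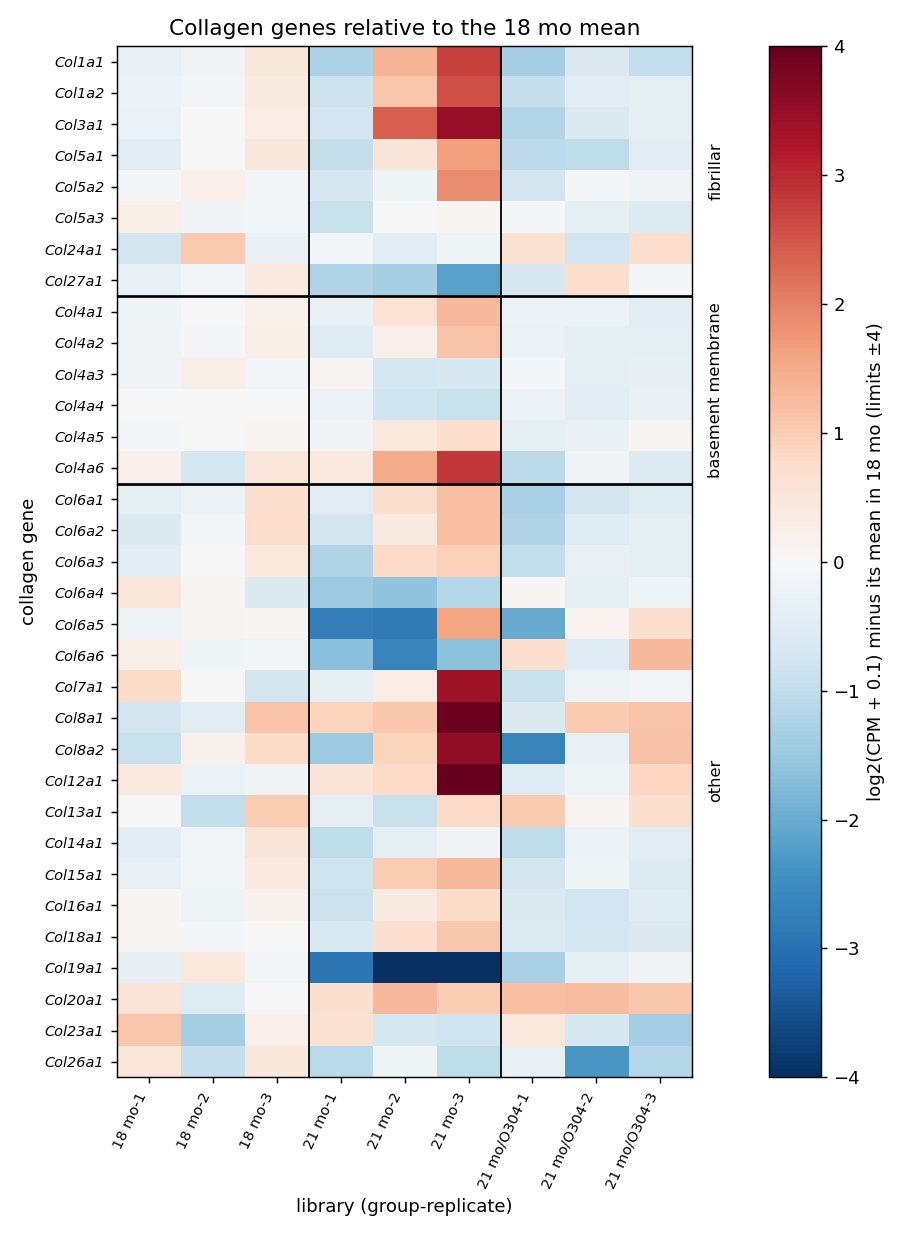
Log2(CPM + 0.1) of the 33 tested collagen genes in each library, less the mean of the gene in 18 mo (colour, limited at 4 on either side), grouped by class. In replicate 3 of 21 mo 21 of 33 genes are above the 18 mo range, in replicate 1 of 21 mo 24 are below it, and Col27a1, Col6a4, Col6a6 and Col19a1 are low in all 3 mice of 21 mo.

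The comparison of 21 mo/O304 with 21 mo asks what the AMPK activator did to these genes, and it shares the 3 libraries of 21 mo with the first comparison. No collagen gene was called by edgeR, where 0.00% of all genes were, and 18 of 33 (54.5%) had an unadjusted p under 0.05, beside 20.7% of all genes. Of the 33 genes, 24 had a lower and 9 a higher fitted mean in 21 mo/O304, with a median log2 fold change of -0.84 against -0.02 over all genes. The median was -1.33 for fibrillar, -0.66 for type IV and -0.84 for the other collagens. Without replicate 3 of 21 mo these became -0.35, -0.28 and -0.43, with no call. Without replicate 1, edgeR called 21 of 35 (60.0%, of which 17 were lower and 4 higher), and 23.1% of all genes. DESeq2 called 9 of 34 (26.5%), with 5.20% of all genes, namely Col1a1, Col1a2, Col3a1, Col4a6, Col6a1 and Col18a1 as lower and Col6a6, Col19a1 and Col27a1 as higher. limma voom with sample quality weights called 22 of 33 (66.7%), 14 lower and 8 higher, with 41.1% of all genes.

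The third comparison, 21 mo/O304 against 18 mo, contrasts groups whose libraries lay closer together than those of 21 mo, and it shares its libraries with the others. No collagen gene was called by edgeR, with 0.00% of all genes, and 1 of 33 (3.03%), Col20a1, had an unadjusted p under 0.05, beside 9.66% of all genes. DESeq2 and limma voom called none either. When edgeR was fitted to the 6 libraries of these groups alone, 1 of 32 collagens (3.12%) was called beside 0.144% of all genes, Col18a1 as lower (log2 fold change -0.60, SE 0.08, adjusted p = 0.0359). The SE of Col1a1 was 0.24 in that fit, against 0.74 in the fit that includes the 21 mo libraries. Unadjusted p was under 0.05 there for Col1a1, Col1a2, Col3a1, Col4a1, Col4a2, Col4a4, Col5a1, Col6a1, Col15a1, Col16a1 and Col18a1, all lower, and for Col20a1, higher. The share of all genes at that threshold in this fit is not given, so this list cannot be read as a result about collagens. All 6 type IV genes, 6 of 8 fibrillar and 14 of 19 other collagens had a lower fitted mean in 21 mo/O304, with medians of -0.31, -0.45 and -0.56, against 0.003 over all genes. The 3 mice of 21 mo/O304 lay below the 18 mo range for 23, 17 and 16 of the 33 genes (69.7, 51.5 and 48.5%), against 30.4, 32.5 and 31.3% of all genes. Without overlap between the groups' libraries, 9 of 33 (27.3%) were lower in 21 mo/O304, beside 13.3% of all genes, namely Col1a1, Col1a2, Col3a1, Col4a1, Col4a2, Col4a4, Col6a1, Col16a1 and Col18a1, and 1 (3.03%), Col20a1, was higher, beside 13.2% of all genes.

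**Figure D3:**
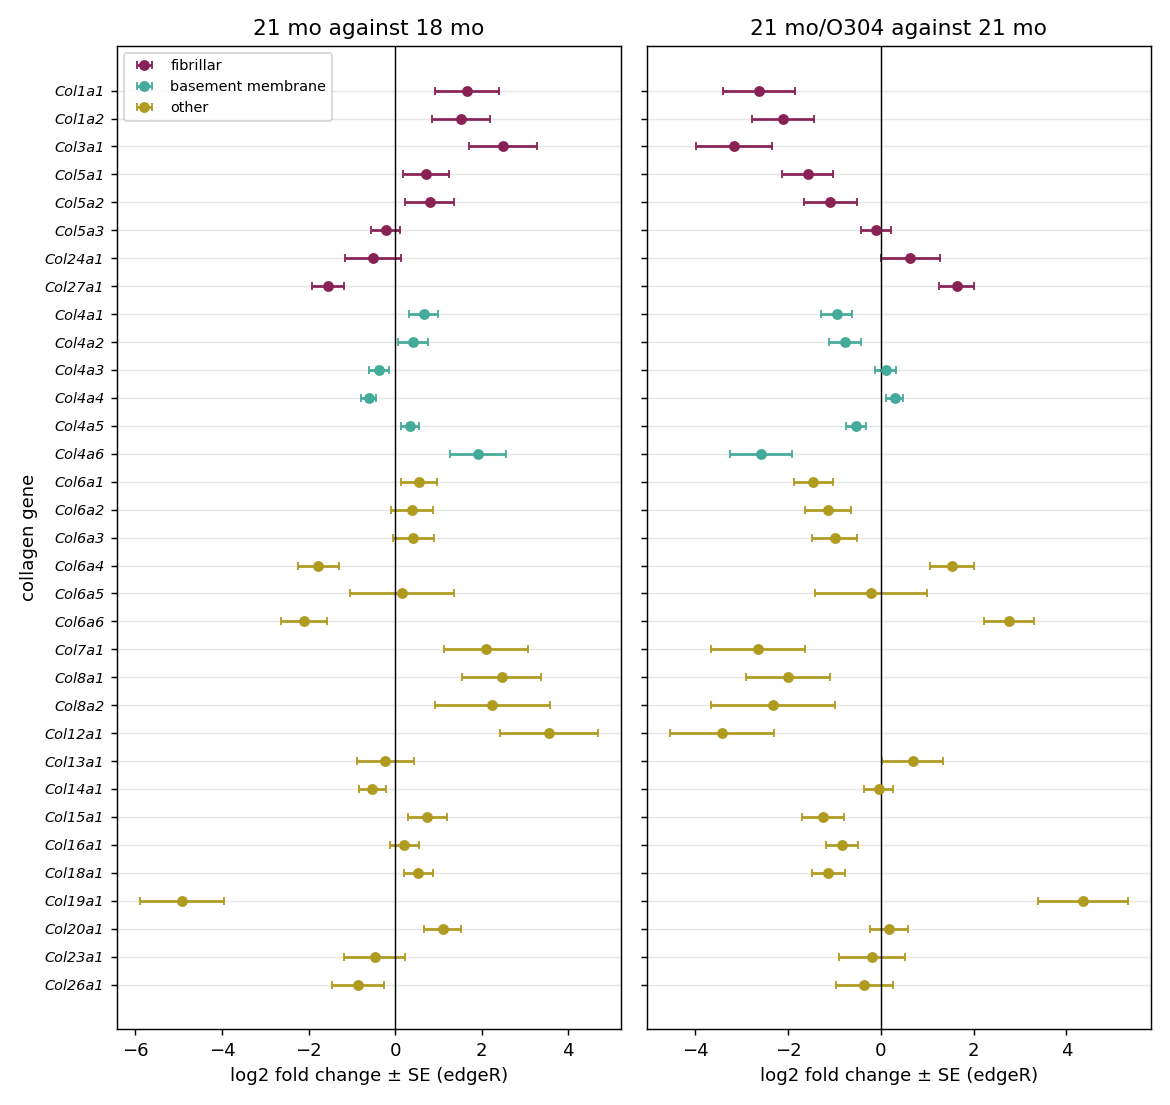
Log2 fold changes with their standard errors (x axis) from edgeR for the 33 tested collagen genes (y axis, coloured by class), for 21 mo against 18 mo on the left and 21 mo/O304 against 21 mo on the right. Bars are 1 standard error, both panels use the same 3 libraries of 21 mo, and none of the points passed the adjusted threshold.

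Among the fibrillar genes, Col3a1, Col1a2 and Col1a1 had the highest mean FPKM and the widest spread in 21 mo. Col1a1 (ENSMUSG00000001506, chromosome 11, 94936224 to 94953042, plus strand, GRCm38), the alpha 1 chain of type I collagen, was measured at 20.3, 22.7 and 33.9 CPM in 18 mo, at 10.4, 63.7 and 168 in 21 mo, and at 9.94, 16.7 and 12.6 in 21 mo/O304. Col1a2, the alpha 2 chain, was at 44.7, 49.5 and 67.4 CPM in 18 mo, at 29.2, 115 and 320 in 21 mo, and at 28.1, 38.4 and 41.4 in 21 mo/O304. Replicates 2 and 3 of 21 mo were above every other mouse for both genes, whereas replicate 1 was below the whole 18 mo group. Col3a1 (chromosome 1, 45311538 to 45349706, plus strand), the chain of type III collagen, which forms fine fibrils together with type I, was at 41.8, 50.1 and 61.7 CPM in 18 mo, at 29.7, 265 and 567 in 21 mo, and at 22.4, 33.7 and 39.7 in 21 mo/O304. Between replicates 1 and 3 of 21 mo it differed 19.1-fold, and Col1a1 differed 16.1-fold. With edgeR, the log2 fold change of Col3a1 was 2.49 (SE 0.79, adjusted p = 0.103) in 21 mo against 18 mo and -3.17 (SE 0.81, adjusted p = 0.175) in 21 mo/O304 against 21 mo. For Col1a1 edgeR gave 1.66 (SE 0.74, adjusted p = 0.196) in the first comparison and -2.63 (SE 0.77, adjusted p = 0.175) in the second, and for Col1a2 it gave 1.52 (SE 0.66, adjusted p = 0.185) in the first and -2.11 (SE 0.67, adjusted p = 0.180) in the second. Without replicate 3 of 21 mo all of these lay closer to 0, with Col3a1 at 1.503 and -2.19, Col1a1 at 0.51 and -1.49, and Col1a2 at 0.40 and -0.99 in the first and second comparison. For Col1a1, Col1a2 and Col3a1 the 3 mice of 21 mo/O304 were all below the 3 mice of 18 mo, with log2 fold changes of -0.97, -0.58 and -0.68.

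The type V genes, whose product is built into type I fibrils and limits their diameter, followed in part. Col5a1 was at 7.25, 9.74 and 13.7 CPM in 18 mo, at 5.15, 14.1 and 31.0 in 21 mo, and at 4.77, 4.83 and 7.26 in 21 mo/O304. Col5a2, which lies 24614 bases from Col3a1 on chromosome 1, was at 23.7, 28.8 and 23.2 CPM in 18 mo, at 15.7, 22.3 and 93.2 in 21 mo, and at 15.1, 24.1 and 22.7 in 21 mo/O304. Unlike in Col3a1, only replicate 3 of 21 mo was high for Col5a2, and without it the edgeR log2 fold change turned from 0.80 (SE 0.57, adjusted p = 0.392) to -0.42 in 21 mo against 18 mo. In 21 mo/O304 against 21 mo it turned from -1.09 (SE 0.57, adjusted p = 0.296) to 0.12. Col5a1 likewise turned from 0.71 (SE 0.54, edgeR adjusted p = 0.417) to -0.10 in the first comparison without that replicate, and it stayed below 0 in the second (-1.58, SE 0.56, edgeR adjusted p = 0.191, and -0.77 without it). Col5a3 had few counts and little spread, at 4.09, 3.08 and 3.11 CPM in 18 mo, 1.81, 3.41 and 3.57 in 21 mo, and 3.31, 2.62 and 2.29 in 21 mo/O304.

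Types XXIV and XXVII are fibrillar by sequence, and type XXVII is known from cartilage. Col27a1 (chromosome 4, 63214004 to 63334991, plus strand, with Mir455 inside it) was below the 18 mo range in all 3 mice of 21 mo, whereas the type I and III genes were below it only in replicate 1. It was at 31.1, 35.4 and 50.0 CPM in 18 mo, at 16.5, 14.9 and 8.38 in 21 mo, and at 24.6, 61.6 and 36.8 in 21 mo/O304. The 21 mo group therefore did not overlap with either of the others. With edgeR the log2 fold change was -1.55 (SE 0.37, adjusted p = 0.0717) in 21 mo against 18 mo and 1.63 (SE 0.37, adjusted p = 0.175) in 21 mo/O304 against 21 mo. Replicate 3 of 21 mo, the highest library for Col1a1 and Col3a1, was the lowest for Col27a1. Col24a1 had at most 1.29 CPM, at 0.310, 1.29 and 0.453 in 18 mo, 0.535, 0.398 and 0.504 in 21 mo, and 0.930, 0.298 and 1.02 in 21 mo/O304, and its groups overlapped.

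**Figure D4:**
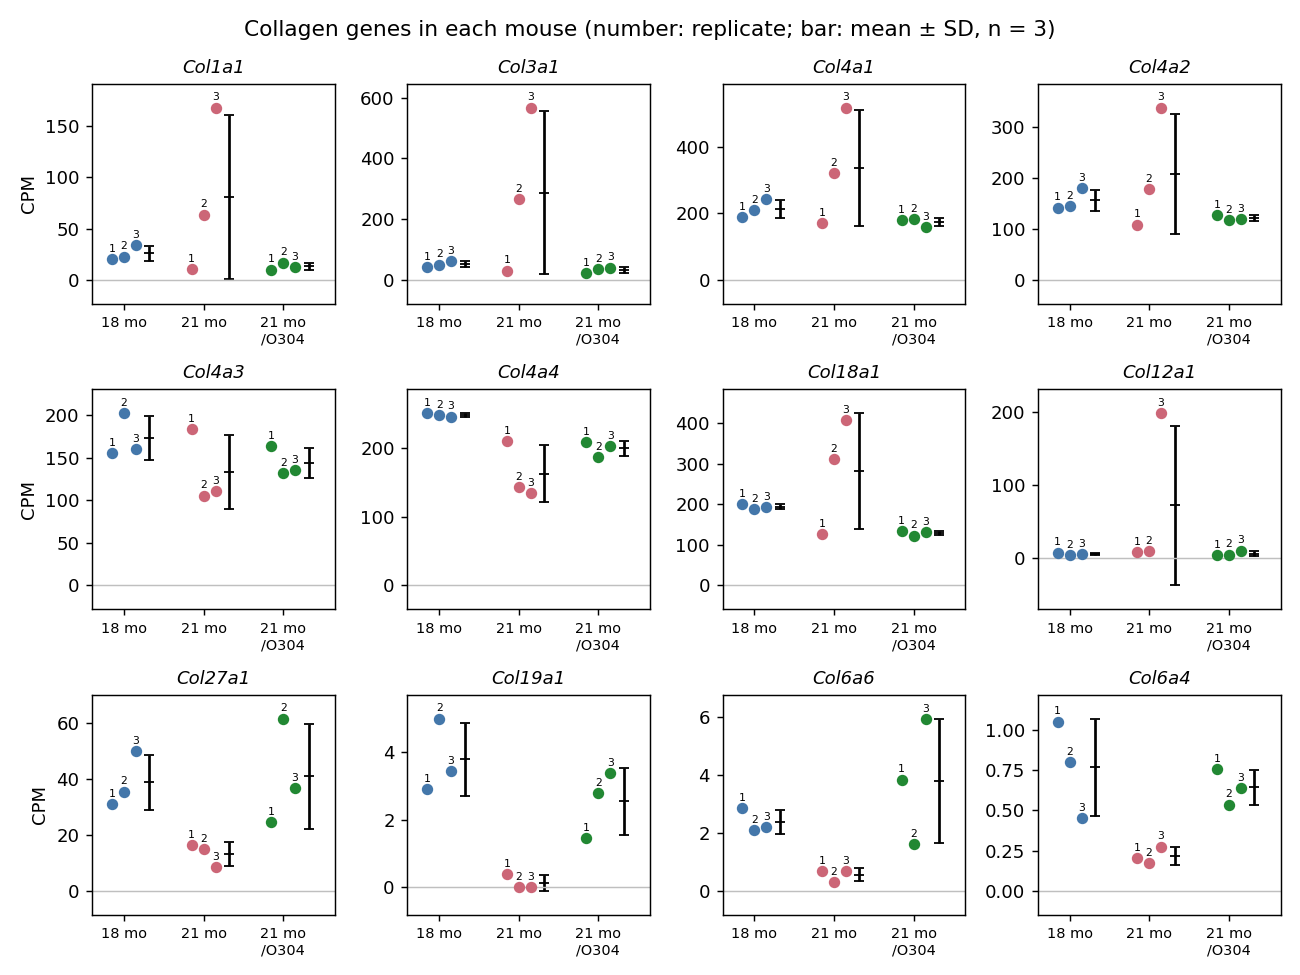
CPM of 12 collagen genes in each mouse (points, numbered by replicate) with the mean and SD of each group (bars, n = 3). The y axes differ between panels, and SD bars can reach below 0. Col1a1, Col3a1, Col4a1, Col4a2 and Col18a1 are highest in replicate 3 of 21 mo and below the 18 mo range in replicate 1, Col12a1 is high in replicate 3, and Col27a1, Col19a1, Col6a6 and Col6a4 do not overlap between 21 mo and either other group.

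The type IV genes lie in head-to-head pairs. In 21 mo against 18 mo Col4a1, Col4a2, Col4a5 and Col4a6 had a higher fitted mean, and Col4a3 and Col4a4 a lower one. Col4a1 and Col4a2 share a start region on chromosome 8, where Col4a1 spans 11198423 to 11312826 on the minus strand and Col4a2 spans 11312805 to 11449287 on the plus strand, with 22 bases in common. Col4a1 was at 190, 210 and 242 CPM in 18 mo, at 171, 321 and 519 in 21 mo, and at 180, 182 and 159 in 21 mo/O304. Col4a2 was at 141, 145 and 180 CPM in 18 mo, at 108, 177 and 338 in 21 mo, and at 127, 117 and 119 in 21 mo/O304. For both genes replicate 1 of 21 mo was below the 18 mo group and every mouse of 21 mo/O304 was too, while replicate 3 was the highest of all 9. The edgeR log2 fold changes of Col4a1 were 0.66 (SE 0.33, adjusted p = 0.244) in 21 mo against 18 mo and -0.96 (SE 0.34, adjusted p = 0.190) in 21 mo/O304 against 21 mo. Col4a2 had 0.42 (SE 0.34, adjusted p = 0.454) in the first and -0.78 (SE 0.35, adjusted p = 0.242) in the second by edgeR, and these became -0.14 and -0.23 without replicate 3 of 21 mo. Col4a1 was at 0.18 and -0.49 without it.

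Col4a4 and Col4a3 face away from each other on chromosome 1, with Col4a4 at 82448423 to 82586849 on the minus strand and Col4a3 at 82586921 to 82722059 on the plus strand, 71 bases apart. Col4a4 was tightly grouped in 18 mo at 252, 249 and 247 CPM, and it was at 211, 143 and 134 in 21 mo and at 210, 187 and 203 in 21 mo/O304. Each of the 6 older mice was below the 18 mo group. Its edgeR log2 fold change was -0.61 (SE 0.18, adjusted p = 0.0922) in 21 mo against 18 mo, 0.30 (SE 0.18, adjusted p = 0.349) in 21 mo/O304 against 21 mo, and -0.31 (SE 0.18, adjusted p = 0.617) in 21 mo/O304 against 18 mo. Col4a3 was at 156, 203 and 160 CPM in 18 mo, at 184, 105 and 111 in 21 mo, and at 164, 132 and 135 in 21 mo/O304. Replicates 2 and 3 of 21 mo were the lowest libraries for both genes, and replicate 3 was the highest for the podocyte markers. For Col4a3 edgeR gave -0.37 (SE 0.23, adjusted p = 0.321) in 21 mo against 18 mo and 0.11 (SE 0.23, adjusted p = 0.795) in 21 mo/O304 against 21 mo. By rank among the 44 collagens, Col4a4 went from 3, 3 and 4 in 18 mo to 2, 5 and 8 in replicates 1 to 3 of 21 mo, and Col4a3 from 5 in each 18 mo mouse to 3, 6 and 9.

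The X-linked pair, Col4a6 on the minus strand and Col4a5 on the plus strand 1308 bases further on, was higher in replicates 2 and 3 of 21 mo. Col4a5, whose chain joins those of Col4a3 and Col4a4, was at 32.2, 33.6 and 34.0 CPM in 18 mo, at 30.2, 44.3 and 53.0 in 21 mo, and at 25.2, 27.1 and 35.7 in 21 mo/O304. Its direction was thus not that of its partners in the glomerular network, with an edgeR log2 fold change of 0.35 (SE 0.21, adjusted p = 0.301) in 21 mo against 18 mo and of -0.54 (SE 0.21, adjusted p = 0.208) in 21 mo/O304 against 21 mo. Col4a6, whose chain pairs with that of Col4a5 in other basement membranes, such as that of Bowman's capsule, was at 1.24, 0.616 and 1.53 CPM in 18 mo, at 1.40, 3.13 and 8.20 in 21 mo, and at 0.465, 0.954 and 0.700 in 21 mo/O304. All 3 mice of 21 mo were above those of 21 mo/O304, and 2 of 3 were above those of 18 mo. The edgeR log2 fold change of Col4a6 was 1.91 (SE 0.64, adjusted p = 0.114) in 21 mo against 18 mo and -2.58 (SE 0.67, adjusted p = 0.175) in 21 mo/O304 against 21 mo, or 0.99 and -1.67 without replicate 3 of 21 mo.

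The groups' libraries did not overlap for few of the 33 collagens. In the first comparison, 2 of 33 (6.06%) were higher in 21 mo than in 18 mo without overlap, Col12a1 and Col20a1, beside 13.5% of all genes, and 5 of 33 (15.2%) were lower, Col4a4, Col6a4, Col6a6, Col19a1 and Col27a1, beside 15.3%. For Col20a1 the highest library of 18 mo and the lowest of 21 mo both had 10 counts. In 21 mo/O304 against 21 mo, 4 of 33 (12.1%) were higher without overlap, Col6a4, Col6a6, Col19a1 and Col27a1, beside 10.8% of all genes, and 2 of 33 (6.06%) were lower, Col4a6 and Col6a1, beside 10.5%. These shares are near those of all genes or below them.

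Type VI collagen forms beaded filaments close to cells, and its genes did not move as a unit. Col6a1 was at 15.9, 17.6 and 32.3 CPM in 18 mo, at 15.7, 32.8 and 47.9 in 21 mo, and at 8.43, 12.3 and 14.4 in 21 mo/O304. Every mouse of 21 mo/O304 was below every other mouse, with an edgeR log2 fold change of -1.46 (SE 0.42, adjusted p = 0.175) against 21 mo and -0.90 (SE 0.42, adjusted p = 0.533) against 18 mo. Col6a2 and Col6a3, which encode the other chains of the classical type VI molecule, ranged from 7.69 to 29.8 and from 7.36 to 33.3 CPM in 21 mo, with replicate 1 the lowest and replicate 3 the highest. The 3 remaining genes, Col6a4, Col6a5 and Col6a6, lie next to each other on the minus strand of chromosome 9. Col6a6 (105687809 to 105828160) was at 2.85, 2.10 and 2.21 CPM in 18 mo, at 0.669, 0.284 and 0.687 in 21 mo, and at 3.84, 1.61 and 5.92 in 21 mo/O304. With edgeR its log2 fold change was -2.11 (SE 0.53, adjusted p = 0.0775) in 21 mo against 18 mo and 2.77 (SE 0.54, adjusted p = 0.175) in 21 mo/O304 against 21 mo. Col6a4 had at most 17 counts in a library, with 1.05, 0.801 and 0.453 CPM in 18 mo, 0.201, 0.170 and 0.275 in 21 mo, and 0.756, 0.536 and 0.637 in 21 mo/O304. edgeR placed it at -1.78 (SE 0.47, adjusted p = 0.0822) on the log2 scale in the first comparison and at 1.53 (SE 0.48, adjusted p = 0.178) in the second. Col6a5, which lies between them, was low in replicates 1 and 2 of 21 mo but not in replicate 3, at 0.0669, 0.0568 and 3.21 CPM, and its log2 fold change in the first comparison turned from 0.17 to -3.91 without replicate 3.

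The FACIT collagens, which decorate fibrils, held the genes farthest from 0 in both directions. Col12a1 (chromosome 9, 79598991 to 79718831, minus strand), found with type I fibrils in dense connective tissue, was at 8.05, 5.05 and 5.54 CPM in 18 mo, at 8.76, 10.5 and 199 in 21 mo, and at 4.19, 5.30 and 10.9 in 21 mo/O304. Its mean in 21 mo rests on replicate 3, and the edgeR log2 fold change of 3.55 (SE 1.14, adjusted p = 0.104) in 21 mo against 18 mo was 0.61 without that mouse. In 21 mo/O304 against 21 mo it was -3.43 (SE 1.13, adjusted p = 0.182) with it and -0.49 without it. Col19a1 (chromosome 1, 24261890 to 24587472, minus strand), a rare collagen of basement membrane zones, was at 2.91, 4.99 and 3.45 CPM in 18 mo, at 0.401, 0 and 0 in 21 mo, and at 1.45, 2.80 and 3.37 in 21 mo/O304. These are 47, 81 and 61 counts in 18 mo, 6, 0 and 0 in 21 mo, and 25, 47 and 53 in 21 mo/O304, and a count of 0 allows up to 3 counts, or 0.170 and 0.137 CPM in replicates 2 and 3 of 21 mo. The edgeR log2 fold change of Col19a1 was -4.93 (SE 0.97, adjusted p = 0.0626) in 21 mo against 18 mo, the smallest adjusted p of the 33 genes there, and 4.35 (SE 0.97, adjusted p = 0.175) in 21 mo/O304 against 21 mo. Col20a1, another FACIT collagen, was at 0.619, 0.246 and 0.396 CPM in 18 mo, at 0.669, 1.14 and 0.916 in 21 mo, and at 1.05, 1.07 and 0.955 in 21 mo/O304, so that the 6 older mice were above the 18 mo group in CPM. Replicate 1 of 18 mo and replicate 1 of 21 mo both had 10 counts, so only the scaling to library size separated them. The edgeR log2 fold change of Col20a1 was 1.10 (SE 0.43, adjusted p = 0.153) in 21 mo and 1.27 (SE 0.43, adjusted p = 0.419) in 21 mo/O304, each against 18 mo. Col14a1, the FACIT collagen with the highest mean FPKM, was at 39.2, 48.5 and 75.3 CPM in 18 mo, 25.7, 40.0 and 47.6 in 21 mo, and 25.9, 44.5 and 39.0 in 21 mo/O304, and its groups overlapped. Col16a1 was at 13.4, 11.2 and 14.6 CPM in 18 mo, at 7.09, 16.5 and 21.8 in 21 mo, and at 8.61, 7.57 and 9.30 in 21 mo/O304.

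The multiplexins belong to basement membrane zones. Col18a1 (chromosome 10, 77052178 to 77166548, minus strand), the gene of the precursor of endostatin, overlaps Slc19a1 on the opposite strand. It was at 200, 188 and 194 CPM in 18 mo, at 126, 311 and 408 in 21 mo, and at 133, 123 and 131 in 21 mo/O304. All mice of 21 mo/O304 and replicate 1 of 21 mo were below the narrow 18 mo range, and replicates 2 and 3 of 21 mo were above it. The edgeR log2 fold change of Col18a1 was 0.54 (SE 0.34, adjusted p = 0.338) in 21 mo against 18 mo, -1.13 (SE 0.35, adjusted p = 0.176) in 21 mo/O304 against 21 mo, and -0.59 (SE 0.34, adjusted p = 0.620) in 21 mo/O304 against 18 mo. Without replicate 3 of 21 mo the first was 0.15 and the second -0.75. Col15a1, the other multiplexin, was at 18.9 to 30.4 CPM in 18 mo, 13.4, 46.7 and 58.5 in replicates 1 to 3 of 21 mo, and 13.8, 20.4 and 15.8 in 21 mo/O304. The 21 mo mice lay as for Col18a1, but replicate 2 of 21 mo/O304 was within the 18 mo range.

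Of the remaining types, the network former Col8a1 was at 2.29, 2.90 and 8.71 CPM in 18 mo, at 7.22, 8.35 and 61.0 in 21 mo, and at 2.56, 8.05 and 8.60 in 21 mo/O304. Its edgeR log2 fold change of 2.46 (SE 0.92, adjusted p = 0.139) in 21 mo against 18 mo was 0.73 without replicate 3 of 21 mo. Col7a1, which forms the anchoring fibrils below stratified epithelia, was at 1.11, 0.616 and 0.339 CPM in 18 mo, at 0.468, 0.796 and 7.56 in 21 mo, and at 0.291, 0.536 and 0.573 in 21 mo/O304. The single high library of Col7a1, replicate 3 of 21 mo, was also the highest for the urothelial (199 CPM), immune, fibroblast and mural, and podocyte markers. Replicate 2, with 31.5 CPM of urothelial markers, was within the 18 mo range for Col7a1. A link between Col7a1 and any of these cells was not tested. Without replicate 3 the log2 fold change of Col7a1 in 21 mo against 18 mo turned from 2.10 to -0.13. The transmembrane gene Col23a1 was at 6.07, 1.05 and 3.22 CPM in 18 mo, 4.28, 1.65 and 1.56 in 21 mo, and 3.78, 1.73 and 1.02 in 21 mo/O304, and Col26a1 was at 3.53, 1.29 and 3.45, 1.14, 2.22 and 1.19, and 2.04, 0.417 and 1.08 CPM in the same order.

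The 11 genes that were not tested reached the minimum count in at most 2 libraries. Col2a1, the cartilage collagen, had 0 counts in all 9. Col9a1, Col9a2, Col9a3, Col22a1 and Col25a1 had at most 8 counts in a library. Col17a1, a hemidesmosome collagen of basal epithelial cells, had 3, 4 and 1 counts in 18 mo, 2, 22 and 76 in 21 mo, and 0, 2 and 5 in 21 mo/O304. The cartilage genes Col10a1 and Col11a1 and Col28a1 had 17, 54 and 18 counts in replicate 3 of 21 mo and at most 6 elsewhere, and Col11a2 had 20 there and at most 10 elsewhere. For Col10a1, Col11a1, Col11a2, Col17a1 and Col28a1 the highest library was replicate 3 of 21 mo.

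Ratios between chains of the same molecule or network do not depend on the scaling of a library. Groups of 3 were compared with a two-sided exact permutation test, whose smallest possible p is 0.1. The ratio of Col4a1 to Col4a3, the ubiquitous against the mature glomerular network, was 1.63, 1.38 and 2.02 in 18 mo, 1.24, 4.07 and 6.26 in 21 mo, and 1.47, 1.84 and 1.57 in 21 mo/O304 (FPKM). Replicates 2 and 3 of 21 mo were above all other mice and replicate 1 was below them, and the groups did not separate (log2 difference 0.94, exact p = 0.4, in 21 mo against 18 mo, and -0.97, exact p = 0.4, in 21 mo/O304 against 21 mo). The ratio of Col3a1 to Col1a1 was 1.38, 1.48 and 1.22 in 18 mo, 1.90, 2.78 and 2.25 in 21 mo, and 1.51, 1.35 and 2.11 in 21 mo/O304. All mice of 21 mo were above those of 18 mo, including replicate 1, in which both genes were low (log2 difference 0.76, exact p = 0.1, the smallest possible). Against 21 mo, the log2 difference of 21 mo/O304 was -0.49 (exact p = 0.2).

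Of the 5 ratios, that of Col4a1 to Col4a2 had the smallest SD on the log2 scale in each group. Col4a1 to Col4a2 ranged from 1.19 to 1.28 in 18 mo, from 1.36 to 1.61 in 21 mo and from 1.19 to 1.38 in 21 mo/O304, and the 21 mo group did not overlap with 18 mo (log2 difference 0.25, exact p = 0.1). Col4a3 to Col4a4 was between 0.660 and 0.930 in all 9 libraries (log2 difference 0.23 in 21 mo against 18 mo and -0.18 in 21 mo/O304 against 21 mo, exact p = 0.2 for each). Col1a1 to Col1a2 was 0.861, 0.867 and 0.952 in 18 mo, 0.676, 1.05 and 0.994 in 21 mo, and 0.670, 0.823 and 0.576 in 21 mo/O304 (log2 difference -0.003, exact p = 1.0, and -0.38, exact p = 0.2). Over the family of 10 tests, the 5 ratios in both comparisons, the smallest Benjamini-Hochberg adjusted exact p was 0.286.

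**Figure D5:**
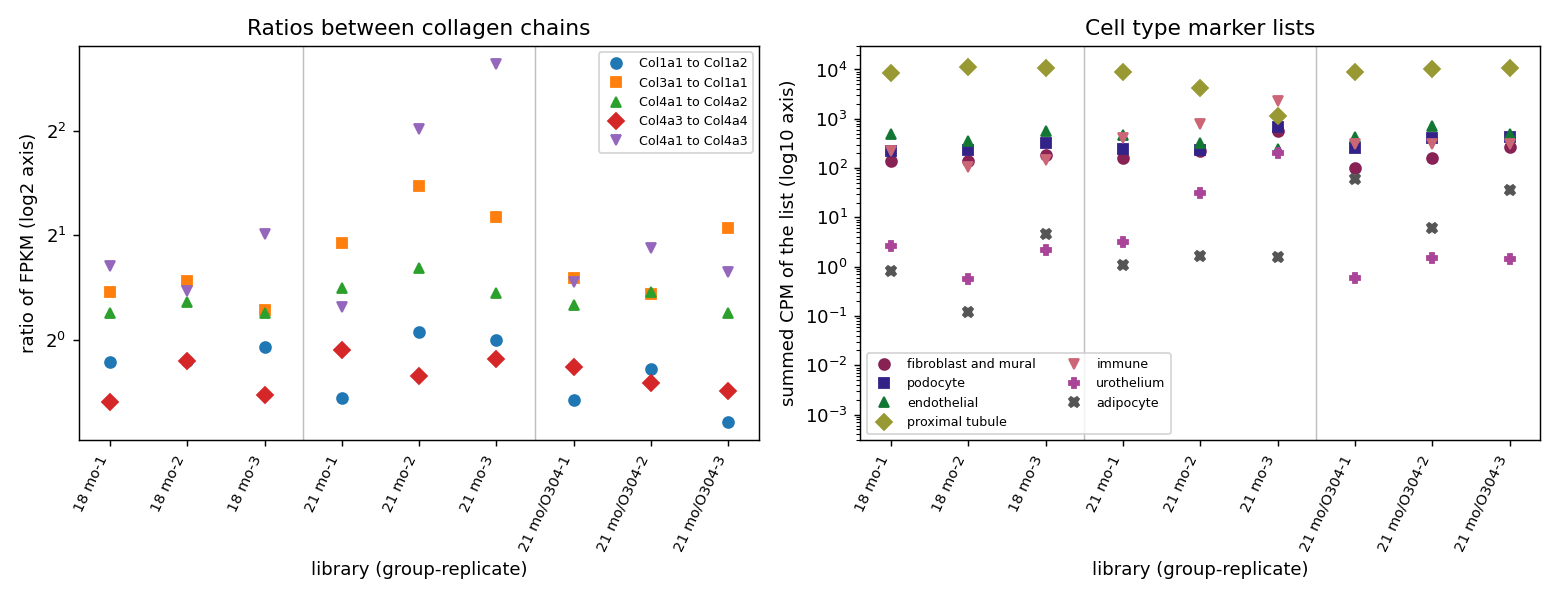
Left, ratios of FPKM between collagen chains in each library (log2 axis), with Col4a1 to Col4a3 at 4.07 and 6.26 in replicates 2 and 3 of 21 mo and at most 2.02 elsewhere. Right, summed CPM of cell type marker lists in the same libraries (log10 axis), where the proximal tubule list is lowest and the immune and urothelial lists are highest in replicate 3 of 21 mo.

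Genes that make, process, bind or sense collagen were taken from a list of 58, of which 54 were tested. edgeR called 0 of them in 21 mo against 18 mo and 0 in 21 mo/O304 against 21 mo, while 17 (31.5%) and 19 (35.2%) had an unadjusted p under 0.05, beside 26.1% and 20.7% of all genes. DESeq2 called 9 (16.4%) and 7 (12.7%), beside 11.7% and 5.20% of all genes, and limma voom with sample quality weights 26 (48.1%) and 30 (55.6%), beside 52.9% and 41.1%. Of the 54, 38 had a higher and 16 a lower fitted mean in 21 mo than in 18 mo (median log2 fold change 0.28). Of all 15902 genes, 8387 were higher (median 0.03). In 21 mo/O304 against 21 mo, 15 had a higher and 39 a lower mean (median -0.41), where 8234 of all genes were lower (median -0.02). By role, all 7 cross-linking enzymes had a higher mean in 21 mo than in 18 mo and a lower one in 21 mo/O304 than in 21 mo. Without replicate 3 of 21 mo, Loxl1 (-0.64), Loxl3 (-0.08), Pxdn (-0.02) and Tgm2 (-0.007) turned below 0 in 21 mo against 18 mo. Lox, Loxl2 and Loxl4 stayed above 0. In 21 mo/O304 against 21 mo, only Loxl1 turned, to 0.04. The prolyl and lysyl hydroxylation genes were divided, with 8 of 14 higher and 6 lower in 21 mo against 18 mo.

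Lox, which oxidises lysines so that fibrils cross-link, was at 2.54, 1.85 and 2.32 CPM in 18 mo, at 4.95, 12.8 and 106 in 21 mo, and at 3.37, 3.40 and 8.98 in 21 mo/O304. All 6 older mice were above the 18 mo group, and the edgeR log2 fold change was 4.21 (SE 1.07, adjusted p = 0.0775) in 21 mo against 18 mo and -2.98 (SE 0.99, adjusted p = 0.183) in 21 mo/O304 against 21 mo, or 1.97 and -0.75 without replicate 3 of 21 mo. Plod2, the lysyl hydroxylase of collagen telopeptides, was at 44.4, 39.4 and 29.5 CPM in 18 mo, at 54.9, 49.7 and 49.4 in 21 mo, and at 35.6, 30.9 and 26.5 in 21 mo/O304. Here the 3 mice of 21 mo stood close together and above all others, including replicate 1, with an edgeR log2 fold change of 0.44 (SE 0.17, adjusted p = 0.144) from 18 mo and of -0.73 (SE 0.17, adjusted p = 0.175) for 21 mo/O304 against 21 mo. Bmp1, which removes the C-terminal propeptide of fibrillar procollagens, was at 15.3, 11.0 and 12.2 CPM in 18 mo, at 13.0, 23.3 and 52.6 in 21 mo, and at 8.90, 7.87 and 8.66 in 21 mo/O304, where it was below every other mouse (edgeR log2 fold change -1.81, SE 0.43, adjusted p = 0.175, against 21 mo, and -1.09 without replicate 3 of 21 mo). Serpinh1, the collagen chaperone HSP47, was at 103, 115 and 121 CPM in 18 mo, 96.5, 196 and 213 in 21 mo, and 98.2, 132 and 106 in 21 mo/O304.

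Of the proteins that bind fibrils, Tnxb (tenascin X) was lower in all 3 mice of 21 mo, at 8.70, 9.38 and 7.05 CPM, than in 18 mo, at 18.8, 16.8 and 13.7, and than in 21 mo/O304, at 11.9, 16.7 and 15.3. edgeR gave -0.97 (SE 0.20, adjusted p = 0.0626) in 21 mo against 18 mo and 0.81 (SE 0.20, adjusted p = 0.175) in 21 mo/O304 against 21 mo. Dcn (decorin) was at 31.7, 23.7 and 43.8 CPM in 18 mo, 44.4, 66.4 and 169 in 21 mo, and 26.5, 36.7 and 103 in 21 mo/O304. Fn1 (fibronectin) followed the type I genes, with 19.0, 19.96 and 34.8 CPM in 18 mo, 12.9, 59.4 and 237 in 21 mo, and 13.4, 21.3 and 20.9 in 21 mo/O304.

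All 9 collagen receptors tested had a lower mean in 21 mo/O304 than in 21 mo, beside 8234 of all 15902 genes. In 21 mo against 18 mo, 7 of 9 had a higher mean, beside 8387 of all genes. Without replicate 3 of 21 mo, the log2 fold change of Itga11 turned to 0.73 in 21 mo/O304 against 21 mo. Those of Mrc2 and Itga10 turned to -0.34 and -0.00089 in 21 mo against 18 mo. No other sign among the receptors turned. Itga1, the alpha 1 subunit of a collagen-binding integrin, was at 95.5, 88.2 and 88.5 CPM in 18 mo, 136, 162 and 107 in 21 mo, and 111, 103 and 92.2 in 21 mo/O304. The 21 mo mice were above all mice of 18 mo (edgeR log2 fold change 0.57, SE 0.16, adjusted p = 0.0851). Itga2 was at most 0.453 CPM in 18 mo, at 1.07, 2.61 and 17.0 in 21 mo, and at 0.349, 0.119 and 1.27 in 21 mo/O304, which overlapped with 21 mo. Its edgeR log2 fold change was 4.25 (SE 1.15, adjusted p = 0.0835) in 21 mo against 18 mo. In 21 mo/O304 against 21 mo edgeR gave -3.58 (SE 1.09, adjusted p = 0.176) for Itga2. Without replicate 3 of 21 mo these became 2.33 and -1.66. Lair1, an inhibitory collagen receptor of leukocytes, was at 4.71, 4.68 and 6.22 CPM in 18 mo, 11.1, 12.05 and 35.8 in 21 mo, and 9.01, 9.83 and 8.66 in 21 mo/O304, and its 3 groups did not overlap. The summed immune markers stood in the same order, at most 218 CPM in 18 mo, at least 406 in 21 mo, and 304.5 to 314.5 in 21 mo/O304. Most of that sum was Lyz2, and of the 6 markers 2 were lower and 1, Cd79a, was higher in 21 mo/O304 than in 21 mo without overlap, beside 10.5% and 10.8% of all genes.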

How the data were processed

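Kidney RNA of 9 mice was sequenced as 1 library per mouse. The authors used HISAT2 (2.0.5) for alignment of the filtered reads and featureCounts (1.5.0-p3) for counting on genes. The deposited counts are raw. FPKM, also deposited, rests on those counts and on the gene length in the table. The deposited table also holds the authors' fold changes and p-values, which were not used. The submitters' processing notes name GRCm38 and mm10, and coordinates are those of the table. Strandedness and the handling of multiply mapped reads are not given in the sources used here, so genes that overlap others are uncertain. The members and lists were chosen with earlier results of these data known.

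Genes were kept by edgeR's filterByExpr (minimum count 10, minimum total 15), which left 15902 of 54532, and scaled by TMM. A quasi-likelihood model with 1 mean per group was fitted to the 9 libraries in edgeR (4.0.16, under R 4.3.3), leaving 6 residual degrees of freedom, two-sided with Benjamini-Hochberg adjustment over all genes tested. The SE is the size of the log2 fold change divided by the square root of F. Genes with no adjusted p in DESeq2 (1.42.0) were left out of its counts. Values in every library are given for all tested fibrillar and type IV genes and, of the others, for the 6 with the smallest p per comparison and the gene with the highest mean FPKM of each kind. Fold changes are given for up to 6 genes per class with the smallest p, and of the pathway list up to 3 per role. Genes named beyond these were chosen after their values were seen. The scripts were tested on simulated data, where a larger share of the DESeq2 calls was false than of the edgeR or limma voom calls. The replicate numbers do not come from shared animals, and deviations of same-numbered libraries from their group means correlated between -0.13 and 0.17, so no pairing was used.

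Alternatives were DESeq2, upper-quartile and RLE normalization, a filter of at least 1 count in all or of 10 in each library, a fit to the 6 libraries of a comparison, a block for the replicate number, limma 3.58.1 as voom with sample quality weights or as limma-trend on log2(FPKM + 1) above a mean of 0.5 FPKM, types XV and XVIII counted with type IV, and leaving out each library. p-values measure the spread between these mice only.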

Additional observations from a re-analysis of the deposited data

How the results depend on the processing

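Upper-quartile and RLE normalization, at least 10 counts in every library, limma-trend on log2(FPKM + 1) and the replicate block called no collagen in any comparison, and counting types XV and XVIII with type IV moved no class median beyond its spread. The replicate number as a block gave 0 collagen calls in each comparison and changed no call, but the numbers do not pair the mice. In 21 mo against 18 mo, DESeq2 called 6 collagens and 9 pathway genes, a filter of at least 1 count 2 (Col19a1 and Col27a1) and 4, and limma voom with sample quality weights 17 and 26. Leaving out each library gave 0 to 17 collagens and 0 to 17 pathway genes. In 21 mo/O304 against 21 mo, DESeq2 called 9 and 7, voom 22 and 30, and leaving out each library gave 0 to 21 and 0 to 23. Of the fits with a library left out, those without replicate 1 of 21 mo gave the highest counts. In 21 mo against 18 mo that fit called 48.6% of collagens and 31.5% of pathway genes, beside 25.4% of all genes. In 21 mo/O304 against 21 mo it called 60.0% and 42.6%, beside 23.1% of all genes. In 21 mo/O304 against 18 mo, fitting only the 6 libraries compared called 1 collagen (Col18a1), and leaving out each library none (0 to 0). The cause of these differences was not tested.

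The fibrillar median log2 fold change ranged from -0.25 to 1.16 in 21 mo against 18 mo and from -1.50 to -0.35 in 21 mo/O304 against 21 mo as each library was left out, and the value nearest to 0 or below it was that without replicate 3 of 21 mo. The median of the other collagens in 21 mo/O304 against 18 mo was -0.31 with DESeq2, -0.28 with at least 1 count, both over 27 genes, and -0.62 to -0.30 with each library left out. In at least 1 setting the sign turned for 12 of 33 collagens in 21 mo against 18 mo (8 of them without replicate 3 of 21 mo) and for 8 in 21 mo/O304 against 21 mo (5 of them without it). Among the genes given with a fold change they include, in the first, Col5a2 (-0.12 with voom and -0.42 to 1.21 with a library left out), Col4a2 (-0.14 to 0.74), Col5a1 (-0.10 to 1.16) and the ratio of Col1a1 to Col1a2 (-0.12 to 0.20). In the second they include Col4a3 (-0.031 to 0.40) and Col5a2 (-1.50 to 0.12). With 3 mice per group and a 21 mo group whose libraries lie on both sides of 18 mo, the fold changes of most fibrillar genes depend on which mice are included (not that of Col27a1, at -1.72 to -1.31 and 1.20 to 1.88 with each library left out), and genes with few counts, such as Col6a4 and Col24a1, are limited by depth.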
